A study of Homo sapiens with 17 samples.

Results

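The S100A calcium-binding protein genes followed here in MDA-MB-231 cells given TRAIL numbered 10: S100A2, S100A3, S100A4, S100A6, S100A8, S100A10, S100A11, S100A13, S100A14 and S100A16. They were picked by symbol from a table of 58870 genes, and all 10 symbols were found. MDA-MB-231 is an established line from a triple-negative breast cancer, given in the labels as mesenchymal and basal B. TRAIL is a TNF-family ligand that can start apoptosis through death receptors. It was added at 45 nM, a dose the labels call suboptimal, and RNA was taken at 0, 1, 3, 6, 12 and 24 h, with 3 libraries per time except 1 h, which had 2. All 17 libraries carry the same treatment label, those at 0 h included. No library of untreated cells at a later time was analysed here, so time with TRAIL and time in culture cannot be told apart.

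S100 proteins are small, mostly dimeric proteins that bind calcium through EF-hand motifs, change shape and then attach to partner proteins. Inside the cell they act on annexins, the cytoskeleton and membrane repair. Several are also released and act as alarm signals through receptors such as AGER (RAGE) and TLR4. In carcinoma lines of mesenchymal character, S100A4 and S100A6 are known for high expression, whereas S100A8 belongs mainly to neutrophils, monocytes and inflamed epithelium.

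All 10 genes lie on the minus strand of chromosome 1 (GENCODE release 29, GRCh38), within 1648 kb from 151982915 to 153631360. S100A10 (151982915 to 151994390) and S100A11 (152032506 to 152047907) lie apart from the other 8. Those run from S100A8 (153390032 to 153391188) through S100A6 (153534599 to 153536244), S100A4 (153543613 to 153550136), S100A3 (153547329 to 153549372), S100A2 (153561108 to 153567890), S100A16 (153606886 to 153613145) and S100A14 (153614255 to 153616986) to S100A13 (153618787 to 153631360). The gene models of S100A3 and S100A4 overlap on the same strand, and the counting of such fragments is not given in the sources used here. S100A13 overlaps S100A1 on the other strand and AL162258.1 on its own, and its counts were not whole numbers in 17 of 17 libraries. S100A1 had at most 24.35 counts and AL162258.1 at most 32.53, against 960.99 to 1359.06 for S100A13.

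RefSeq promoter windows (GRCh38.p14, 250 bases before to 50 after a start site) were found for 10 of the 10 genes, 16 windows in all. Both strands were searched for 4 motifs. A gene was counted if any of its windows had the motif, whereas the shares of all windows are per window. The letters TATAAA were in a window of 3 of the genes and in 11.5% of 35116 windows of the same length. The AP-1 letters TGANTCA were in S100A2 and S100A3, at 52 and 225 bases before the start site, and in 7.71% of all windows. A GC box, GGGCGG, was in 6 of the genes and in 45.0% of all windows. The NF-kappaB motif was in S100A14, which was barely detected, and in 5.91% of all windows. The stretches below are shown for S100A2 and S100A3, the pair with AP-1 letters, and for S100A11, whose ratio to S100A2 is described further on. Each is the part of the first window that lies before the start site and outside annotated exons, at chr1:153565866-153566094, chr1:153549373-153549508 and chr1:152037036-152037254 on the minus strand. Capitals mark the AP-1 and GC box letters. A match describes the sequence only.
S100A2: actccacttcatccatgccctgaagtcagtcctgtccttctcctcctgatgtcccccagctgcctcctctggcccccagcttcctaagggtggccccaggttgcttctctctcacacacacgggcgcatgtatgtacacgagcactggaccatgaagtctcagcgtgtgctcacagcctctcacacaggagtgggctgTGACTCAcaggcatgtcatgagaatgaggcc
S100A3: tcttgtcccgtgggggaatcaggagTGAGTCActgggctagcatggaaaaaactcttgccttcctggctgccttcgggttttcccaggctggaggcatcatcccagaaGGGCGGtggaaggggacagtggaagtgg
S100A11: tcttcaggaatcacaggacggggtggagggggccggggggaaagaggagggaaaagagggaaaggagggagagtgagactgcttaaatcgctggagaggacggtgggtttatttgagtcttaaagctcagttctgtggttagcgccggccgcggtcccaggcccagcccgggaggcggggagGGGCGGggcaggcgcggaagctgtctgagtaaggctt

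Per transcript length, S100A6 was the most abundant of the 10. Its mean over the 17 libraries was 8204 TPM (range 5969 to 9786), rank 7 of all genes with a known length. TPM here is the count per base of transcript, scaled to the same sum in every library. S100A11 followed at 2101 TPM (1624 to 2557). S100A4 (1221 TPM, 970.6 to 1480) and S100A10 (1094 TPM, 877.2 to 1259) had overlapping ranges over the 6 times, and S100A4 was the higher of the pair in 15 of 17 libraries, all but replicates 1 and 2 of 12 h. S100A16 had 450.0 TPM (391.5 to 510.5). S100A13 (212.6 TPM, 195.6 to 234.3) and S100A2 (167.4 TPM, 123.1 to 212.4) overlapped over the times as well, with S100A13 the higher in 17 of 17 libraries. S100A3 had 26.05 TPM (17.92 to 39.2). Together the 10 genes took 0.614% ± 0.020 (SD, n = 3) of all counts at 0 h. The share was 0.690% ± 0.048 at 3 h, 0.448% ± 0.045 at 6 h, and 0.509% ± 0.058 in the 24 h libraries.

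**Figure D1:**
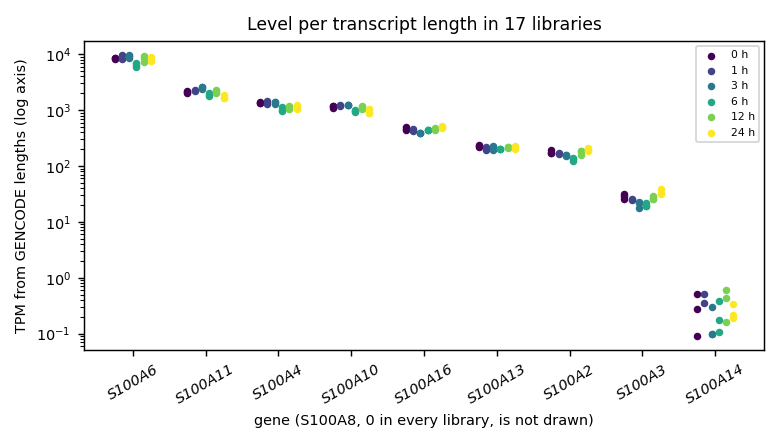
Each point is 1 library, with TPM on a log axis and colour for hours with TRAIL, for the 9 S100A genes that had counts. S100A6 (5969 to 9786 TPM) stands above the others, and S100A14 stands lowest, from 0.0921 to 0.610 TPM.

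S100A8, a subunit of the neutrophil protein calprotectin, had 0 counts in all 17 libraries. A count of 0 allows up to 3 counts, which is 0.156 to 0.2185 CPM in a single library and 0.01114 CPM over all of them; these limits cover counting error only. Its partner S100A9 also had 0 counts throughout. S100A14, an epithelial member, had 1 to 6 counts per library (0.0622 to 0.411 CPM). Neither S100A8 nor S100A14 was tested. The other 8 had at least 121 counts in every library, so all 8 passed the filter at every time.

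Total counts ran from 13731520 to 19234924 per library. Among markers of the labelled cell type, VIM, CD44, MSN, CAV1, AXL and ZEB1 were present in every library (VIM, 2495 to 3724 CPM), while TWIST2 had 0 counts and SPARC 4 to 17. ESR1, PGR and FOXA1 had at most 2 counts, but KRT19 (297.8 to 487.6 CPM), EPCAM (13.08 to 19.29 CPM) and GATA3 (6.965 to 12.12 CPM) were present. Of 7 leukocyte markers, CD3E, MPO and CSF3R were at 0, and the list summed to 1.254 to 2.438 CPM. Replicates 2 and 3 were unusually close at 6 h and at 24 h (chi-square per gene 1.55 and 1.68, against 3.86 to 14.6 for the other replicate pairs). Nothing in the labels says whether replicates were separate cultures, so p-values measure the spread between these libraries, which may be technical. In these same 4 libraries long transcripts were high relative to short ones: the slope of log2 CPM per doubling of transcript length was 0.110 and 0.111 at 6 h and 0.144 and 0.132 at 24 h. The slope was lowest, -0.145, in replicate 2 at 3 h. The S100A transcripts are short, 509 to 1069 bases against a median of 2334 for the genes tested. Most results below are therefore also given from a fit in which every library's trend with length and GC content was removed, called the length-corrected fit. The slope differed between times, from -0.145 to -0.067 at 3 h, 0.020 to 0.111 at 6 h and 0.020 to 0.144 at 24 h. Removing the trend can therefore also take out or add differences between times, and the fit cannot tell these apart.

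At 6 h all 8 tested S100A genes were below their 0 h level, by 0.21 to 0.62 on the log2 scale. By the edgeR quasi-likelihood test, adjusted over 15365 genes, 8 of 8 fell, where 13.2% of all genes tested fell, 16.9% rose and 30.1% changed in either direction. The median log2 difference of the 8 was -0.43, against -0.02 for all genes. In the length-corrected fit 5 of 8 fell (S100A2, S100A3, S100A4, S100A6 and S100A10), with a median of -0.24 against -0.01. That fit called 28.7% of all genes in either direction. With replicate 1 as the only 6 h and 24 h library, which assumes that it varies like the other groups, only S100A2 fell (-0.49, adjusted p = 0.036). The other 7 were all below 0 h in that fit without passing, from S100A3 (-0.65, adjusted p = 0.0508), S100A6 (-0.36) and S100A4 (-0.31) to S100A11 (-0.12). Marker lists also differed from 0 h at 6 h. Of the 6 luminal and epithelial markers tested, 3 fell at 6 h (KRT19, -0.54; EPCAM, -0.38; ERBB3, -0.72) and none rose, with a median of -0.46 (-0.32 length-corrected, again 3 lower). ERBB3 had only 18 to 85 counts per library and was already lower at 3 h (-0.96, adjusted p = 0.0013). From 3 to 6 h KRT19 fell (-0.40), while EPCAM (-0.18) and ERBB3 (0.23) were not called. The list summed to 322.9 to 343.3 CPM at 6 h, against 457.4 to 489.2 at 0 h. Most of that sum was KRT19, with a mean of 391.7 CPM over the 17 libraries, against 16.32 for EPCAM, the next highest. From 6 to 12 h 3 of the 6 rose, where 8.7% of all genes rose. After length correction 5 rose, where that fit called 27.2% of all genes. The sum at 12 h, again mostly KRT19, was 412.6 to 493.3 CPM, overlapping 0 h. At 24 h KRT19 was again below 0 h (-0.35, or -0.13 after length correction). It was the only 1 of the 6 to fall, where 17.1% of all genes fell. CLDN3, with 6 to 24 counts per library, was called higher only after length correction (0.88). The sum at 24 h was 365.5 to 406.4 CPM. Of the 7 mesenchymal markers tested, 4 rose at 6 h (CD44, 0.22; MSN, 0.31; AXL, 0.30; ZEB1, 0.52) and none fell, also 4 after length correction. CD44 (-0.26) and CAV1 (-0.22) then fell from 6 to 12 h, where 11.9% of all genes fell. At 24 h MSN (0.34), AXL (0.36) and ZEB1 (0.42) were called above 0 h, ZEB1 not after length correction. VIM fell at 24 h (-0.36, or -0.29 after length correction), and CAV1 only after length correction (-0.11). At 24 h 18% of all genes rose and 17.1% fell from counts, and the length-corrected fit called 33.7% in either direction. The part of the marker lists in the S100A result was not tested.

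**Figure D2:**
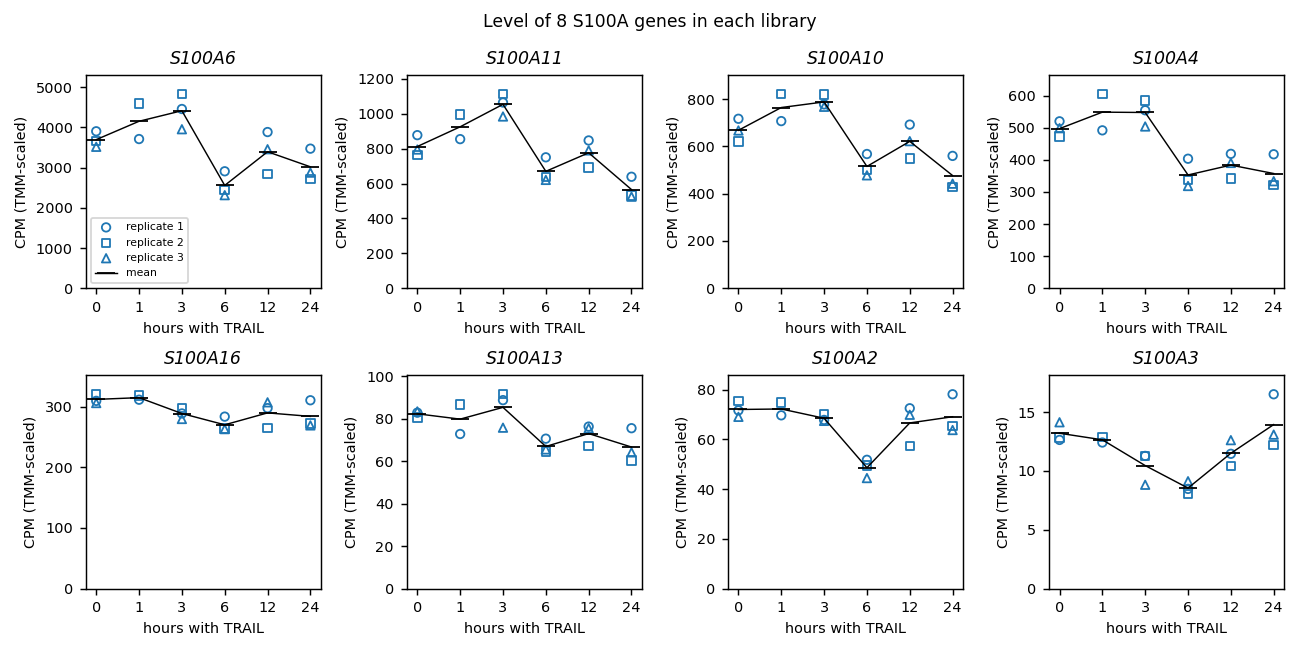
Level in CPM (linear axis from 0) against hours with TRAIL (unevenly spaced) for each of 8 genes. Symbols are libraries by replicate number and bars joined by a line are means. S100A6 had 2314 to 2908 CPM at 6 h, below the 3517 to 3903 of 0 h, and replicate 1 is the highest of the 3 libraries at 24 h in each panel.

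S100A6 (calcyclin), a partner of annexins and of CACYBP, had 3903, 3665 and 3517 CPM at 0 h. It had 3710 and 4594 CPM at 1 h and 4457, 4831 and 3954 CPM at 3 h. At 6 h it had 2908, 2448 and 2314 CPM. All 3 libraries at 3 h were above those of 0 h and all 3 at 6 h were below. The fall at 6 h was -0.53 ± 0.12 (SE) on the log2 scale (adjusted p = 0.0045), and from 3 to 6 h it was -0.79 ± 0.12 (adjusted p = 0.00016), the largest 3 to 6 h step among the 8 genes. The length-corrected differences were -0.28 and -0.39, and both passed the test. At 12 h the libraries spread over 3884, 2841 and 3457 CPM, and at 24 h over 3471, 2712 and 2875 CPM. S100A6 rose from 6 to 12 h (0.41 ± 0.12, adjusted p = 0.027), although a 12 h library lay within the 6 h range, and this call was lost without replicate 2 or 3 of 6 h or replicate 1 or 3 of 12 h (adjusted p up to 0.136). Its length-corrected value was 0.33 (adjusted p = 2e-05). At 24 h it did not pass the test against 0 h (-0.29 ± 0.12, adjusted p = 0.075), and its length-corrected difference was 0.03.

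S100A4, known for its tie to metastasis and its binding of non-muscle myosin, had 519.8, 472.8 and 498.4 CPM at 0 h. At 3 h it had 554.2, 584.0 and 503.7 CPM, overlapping 0 h. The 6 h libraries then had 403.3, 336.5 and 318.4 CPM, those of 12 h had 418.5, 341.8 and 390.2 CPM, and those of 24 h had 417.2, 321.2 and 333.3 CPM. Every library from 6 h on was below every library of 0 h. The gene fell against 0 h at 6 h (-0.50 ± 0.11, adjusted p = 0.0036), at 12 h (-0.37 ± 0.11, adjusted p = 0.036) and at 24 h (-0.48 ± 0.11, adjusted p = 0.0038). S100A4 was the single member called at 12 h, where 1 of 8 fell and 12.4% of all genes changed (5.96% higher and 6.48% lower). The 12 h call was lost without any 1 of the 0 h libraries or without replicate 2 or 3 of 12 h (adjusted p up to 0.166). In the length-corrected fit the gene fell at all 3 times (-0.29, -0.26 and -0.19).

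S100A10, which forms a complex with annexin A2 at the cell surface that takes part in plasmin formation, had 716.8, 619.9 and 667.4 CPM at 0 h. It had 777.7, 819.2 and 767.5 CPM at 3 h, above every 0 h library, but the difference of 0.24 ± 0.10 did not pass the test (adjusted p = 0.114). At 6 h it had 567.8, 500.2 and 477.6 CPM, below 0 h (-0.37 ± 0.10, adjusted p = 0.011). At 12 h its libraries, at 692.2, 549.2 and 622.2 CPM, overlapped those of 0 h. At 24 h they had 559.8, 428.0 and 442.3 CPM, again all below 0 h (-0.49 ± 0.10, adjusted p = 0.0017). Its length-corrected falls were -0.21 at 6 h and -0.30 at 24 h, and both passed. The 6 h call was lost without replicate 1 of 0 h or replicate 3 of 6 h (adjusted p up to 0.0599).

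S100A11, a partner of annexins in membrane repair, was the one member called higher than at 0 h from counts. It had 877.8, 764.7 and 795.4 CPM at 0 h and 855.0 and 996.2 CPM at 1 h. At 3 h the values were 1065, 1114 and 984.8 CPM. The 3 h libraries were all above those of 0 h, by 0.38 ± 0.095 on the log2 scale (adjusted p = 0.011), or 29.8%. At 3 h 1 of 8 members rose and none fell, where 9.04% of all genes rose, 8.71% fell and 17.7% changed. The length-corrected fit called 3 of 8 lower at 3 h (S100A2, S100A3 and S100A16), and scaling by library size alone called 2 lower (S100A3 and S100A16). The length-corrected fit also called more of all genes at 3 h than the 17.7% from counts, so its added calls are not particular to the members. The share of all genes for library size alone is not given here. The S100A11 call was lost without replicate 2 of 0 h or replicate 2 of 3 h (adjusted p up to 0.059), and held in the length-corrected fit (0.20, adjusted p = 0.00079). At 6 h S100A11 had 750.7, 639.1 and 621.1 CPM. The difference from 0 h, -0.28 ± 0.095 (adjusted p = 0.034), was lost after length correction (-0.06, adjusted p = 0.27), and also without replicate 1 or 3 of 0 h or replicate 2 or 3 of 6 h (adjusted p up to 0.15). At 12 h it had 847.4, 692.4 and 790.2 CPM, overlapping 0 h. At 24 h it had 639.2, 533.1 and 525.0 CPM, its lowest level and below every 0 h library (-0.52 ± 0.095, adjusted p = 0.00057). The 24 h fall was -0.23 after length correction (adjusted p = 0.00012).

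S100A2, an epithelial member often lost in breast tumours, had 71.61, 75.31 and 69.02 CPM at 0 h. At 3 h it had 67.78, 70.2 and 67.4 CPM, a difference of -0.07 from counts (adjusted p = 0.61) and -0.24 after length correction (adjusted p = 0.0015). At 6 h it was down to 51.75, 49.55 and 44.41 CPM, clear of both. The fall against 0 h was -0.57 ± 0.088 (adjusted p = 0.00014), or -32.6%, and -0.35 after length correction (adjusted p = 2.3e-05). It was called under each of the 30 alternatives run, those that leave out 1 library included, with adjusted p up to 0.036. By 12 h it had 72.47, 57.39 and 69.86 CPM, all above 6 h (0.45 ± 0.088, adjusted p = 0.0013; 0.36 after length correction). At 24 h it had 78.1, 65.38 and 63.72 CPM, overlapping 0 h (-0.06 ± 0.087, adjusted p = 0.63). In the length-corrected fit the 24 h difference was of the other sign, 0.22 (adjusted p = 0.0018).

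S100A3, best known from the hair cuticle, was the least abundant gene tested, with 121 to 282 counts per library. It had 12.63, 12.83 and 14.13 CPM at 0 h and 11.27, 11.26 and 8.819 CPM at 3 h. All 3 h libraries were below 0 h, without passing the test (-0.34 ± 0.12, adjusted p = 0.0605); the length-corrected difference of -0.47 did pass (adjusted p = 0.0021). At 6 h it had 8.468, 8.027 and 9.12 CPM, a fall of -0.62 ± 0.12 (adjusted p = 0.001), the largest among the 8 genes at that time, and -0.38 after length correction. At 12 h it had 11.45, 10.43 and 12.61 CPM, all above 6 h (0.42 ± 0.12, adjusted p = 0.0198; 0.34 after length correction). That rise was lost without replicate 2 of 6 h or replicate 1 or 3 of 12 h (adjusted p up to 0.0915). At 24 h it had 16.51, 12.21 and 13.08 CPM, overlapping 0 h (0.08 ± 0.12, adjusted p = 0.62), and 0.37 after length correction (adjusted p = 0.006).

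S100A13, which takes part in the release of FGF1, had 82.81, 80.64 and 83.39 CPM at 0 h. It had 70.57, 64.6 and 65.51 CPM at 6 h and 75.5, 60.26 and 64.12 CPM at 24 h. Both later groups lay below 0 h, and the gene fell by -0.30 ± 0.088 at 6 h (adjusted p = 0.015) and by -0.30 ± 0.088 at 24 h (adjusted p = 0.012). Neither call held in the length-corrected fit (-0.07 and 0.00), and each was lost without replicate 2 or 3 of the later time (adjusted p up to 0.0639 and 0.0768). S100A16, a widely expressed member, had the smallest ratio of highest to lowest library among the 8 genes, 1.219 (263.1 to 320.6 CPM). At 3 h its length-corrected difference was -0.18 (adjusted p = 0.0019), against -0.11 from counts (adjusted p = 0.24). Its 6 h libraries, at 283.7, 263.8 and 263.1 CPM, were below the 309.7, 320.6 and 306.1 CPM of 0 h (-0.21 ± 0.064, adjusted p = 0.019). The length-corrected difference was -0.02 (adjusted p = 0.75), and the call was lost without replicate 2 of 0 h or replicate 2 or 3 of 6 h (adjusted p up to 0.084).

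At 1 h 0 of 8 members were called by edgeR (0 also at an unadjusted p under 0.05, and 0 by DESeq2 and limma-voom), where 0.312% of all genes changed, 0.26% higher and 0.0521% lower. At 24 h 4 of 8 fell against 0 h (S100A4, S100A10, S100A11 and S100A13) and none rose, where 17.1% of all genes fell, 18% rose and 35.1% changed. The median log2 difference at 24 h was -0.30, against 0.00 for all genes. After length correction it was 0.02, against 0.01 for all genes. With replicate 1 as the only 24 h library 0 of 8 were called, and the differences of these 4 genes were -0.26, -0.26, -0.35 and -0.13. The length-corrected fit gave 3 lower (S100A4, S100A10 and S100A11) and 2 higher (S100A2 and S100A3) at 24 h, where it called 33.7% of all genes.

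**Figure D3:**
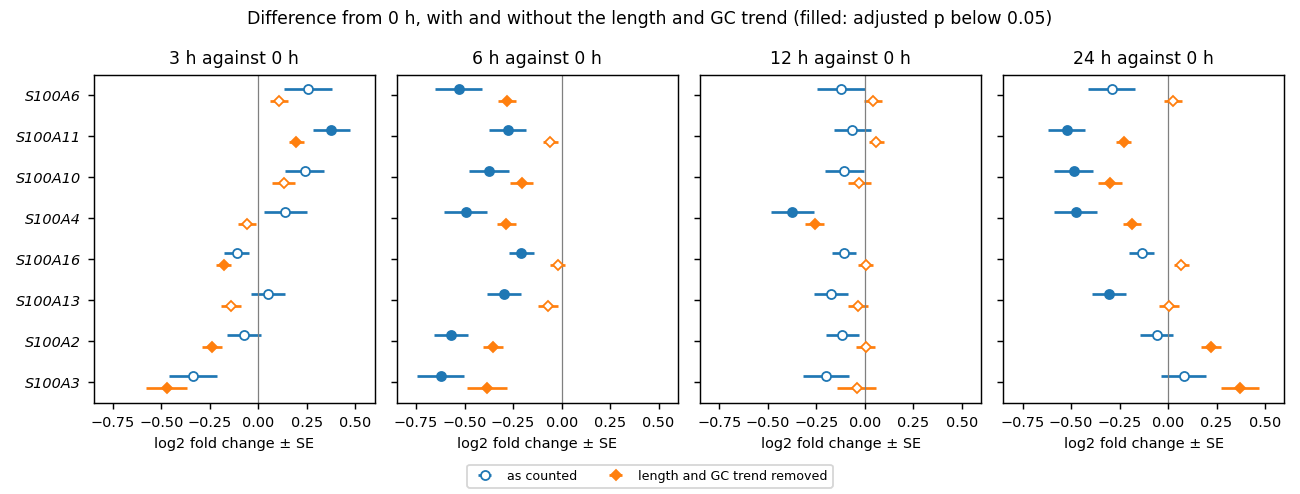
Log2 difference from 0 h with its SE for 8 genes at 3, 6, 12 and 24 h, from counts (blue circles) and from the length-corrected fit (orange diamonds), filled where the adjusted p is below 0.05. At 6 h 8 blue and 5 orange symbols are filled, all on the lower side. At 24 h S100A2 and S100A3 stand on the higher side in orange (0.22 and 0.37).

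Between consecutive times, 0 of 8 members were called from 1 to 3 h (5.73% of all genes changed, 3.17% higher and 2.56% lower; 0 members at an unadjusted p under 0.05, and 0 by DESeq2 and limma-voom). From 3 to 6 h 6 of 8 fell and none rose, where 20.3% of all genes fell, 22.9% rose and 43.2% changed. The 6 were S100A6 (-0.79), S100A11 (-0.65), S100A4 (-0.63), S100A10 (-0.61), S100A2 (-0.50) and S100A13 (-0.35). After length correction S100A6, S100A11, S100A4 and S100A10 still fell, where that fit called 39.3% of all genes. S100A16 then rose, at 0.16 against -0.10 from counts, and S100A13 had 0.07. From 6 to 12 h 3 of 8 rose (S100A2, S100A3 and S100A6), where 8.7% of all genes rose, 11.9% fell and 20.6% changed. After length correction S100A10 (0.18) and S100A11 (0.12) rose as well, where that fit called 27.2% of all genes. From 12 to 24 h 2 of 8 fell (S100A11, -0.46, adjusted p = 0.0058, and S100A10, -0.38, adjusted p = 0.023), where 5.6% of all genes fell, 6.42% rose and 12% changed. After length correction these falls were -0.29 and -0.27 and still passed, S100A2 (0.22) and S100A3 (0.41) rose, and the median of the 8 was 0.05 against -0.12 from counts. That fit called 18.0% of all genes from 12 to 24 h. With replicates 2 and 3 of 24 h averaged as 1 library neither fall passed (S100A11, -0.41, adjusted p = 0.0517; S100A10, -0.32, adjusted p = 0.135). The S100A10 call was lost without replicate 1 or 3 of 12 h or replicate 2 or 3 of 24 h (adjusted p up to 0.129). Over all 6 times together 8 of 8 members differed, where 64.2% of all genes did. S100A16 did so narrowly (adjusted p = 0.049), with values up to 0.128 when 1 library was left out.

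The members did not keep the same proportions. S100A11 and S100A2 have transcripts of like length (594 and 626.5 bases) and like GC content (54.2% and 54.1%), so a ratio between them within a library is little touched by the length trend. S100A11 over S100A2 in CPM was 12.26, 10.15 and 11.52 at 0 h. It was 15.71, 15.87 and 14.61 in the 3 h libraries and 14.51, 12.90 and 13.99 in those of 6 h. The 12 h values were 11.69, 12.06 and 11.31, and the 24 h values 8.18, 8.15 and 8.24. The ratio was above every 0 h value at 3 and 6 h and below every one at 24 h, also in replicate 1. The mean log2 ratio was 3.50 ± 0.14 (SD, n = 3) at 0 h. At 3 h it was 3.94 ± 0.065, and in the 24 h libraries 3.03 ± 0.0076. The exact two-sided permutation p was 0.1 at 3, 6 and 24 h, the smallest that 3 against 3 libraries allow. S100A4 over S100A2 had a mean log2 ratio of 2.79 ± 0.12 at 0 h and 3.00 ± 0.083 at 3 h. It was 2.53 ± 0.046 in the 12 h libraries and 2.37 ± 0.063 in those of 24 h, with the same p of 0.1 for each of these 3 later times. These pairs were 2 of 4 ratios computed and were chosen after their values were seen, so they serve as description.

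**Figure D4:**
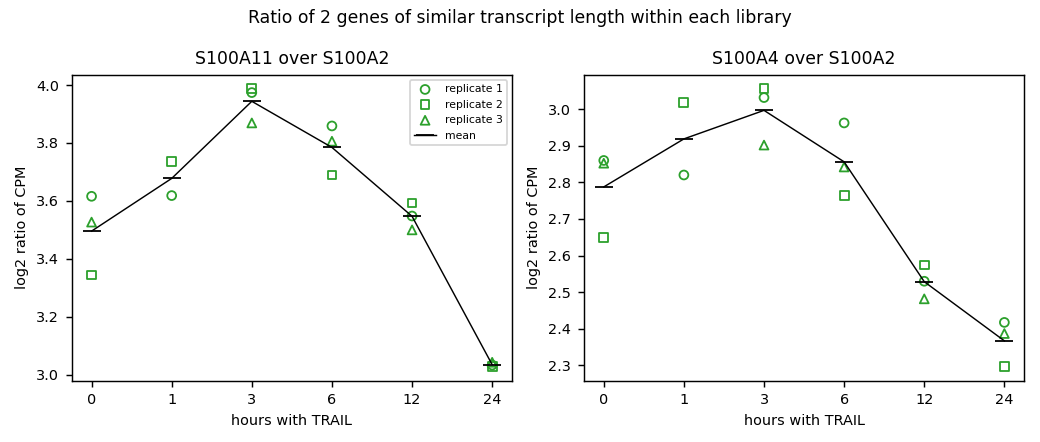
Log2 ratio of CPM within each library against hours with TRAIL for S100A11 over S100A2 and S100A4 over S100A2. Symbols are libraries and bars joined by a line are means. The 3 libraries at 24 h lie together at 3.03 to 3.04 for S100A11 over S100A2, below the 3.34 to 3.62 of 0 h.

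Across the 17 libraries, log2 CPM of S100A10 and S100A11 had the highest Pearson correlation of the 28 member pairs (0.978), and S100A3 with S100A11 the lowest (-0.037). The libraries share the time course and the length trend, so these are descriptions. Among 8332 well expressed genes outside the 10, those most like S100A11 were RPL36AL (0.995), SEC61B (0.990) and TXN (0.990). Those most like S100A10 were TXN (0.988), TPT1 (0.986) and RPL15 (0.984), and those most like S100A4 were CD63 (0.985), VEGFB (0.982) and SSR4 (0.978). These 8 genes have transcripts of 566 to 1179.5 bases, all shorter than the median of 2334. In the 4 libraries with the steepest rise with length, replicates 2 and 3 at 6 and 24 h, S100A6 had 2314 to 2875 CPM. In the library with the steepest fall with length, replicate 2 at 3 h, S100A6 had 4831 CPM, its highest level. The part of this trend in the falls was not tested beyond the length-corrected fit.

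**Figure D5:**
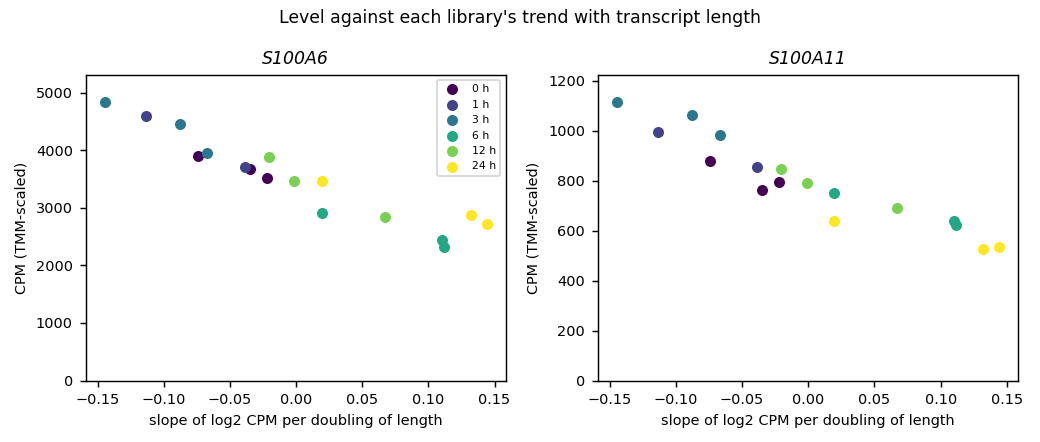
CPM of S100A6 and S100A11 against each library's slope of log2 CPM per doubling of transcript length, with colour for hours with TRAIL. The library with the lowest slope (-0.145) has the highest level of both genes (4831 and 1114 CPM), and libraries with slopes of 0.110 or more have 2314 to 2875 CPM of S100A6.

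Of 11 other genes of the family list, 4 were tested. S100A7, S100A7A, S100A9, S100A12 and S100B had 0 counts. S100P fell at 6 and 12 h from 0.789 ± 0.45 CPM (SD, n = 3) to 0.302 ± 0.032 and 0.211 ± 0.064, with 3 to 21 counts per library (-1.36 and -1.87, or -1.23 and -1.81 after length correction). S100A1 fell at 24 h from 1.21 ± 0.40 to 0.527 ± 0.19 CPM, with 5 to 24.35 counts, a call lost after length correction (-0.88, adjusted p = 0.089). S100PBP, which encodes a binding protein of S100P, rose at 24 h from 21.6 ± 0.47 to 27.7 ± 2.2 CPM (0.36 ± 0.098, adjusted p = 0.0083), a call lost after length correction (0.18, adjusted p = 0.072).

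Of 9 receptor genes, 7 were tested. At 24 h 2 rose and 2 fell, where 18% of all genes rose and 17.1% fell. At 6 h 1 rose and 1 fell, where the shares were 16.9% and 13.2%. AGER, the receptor RAGE, had 23 to 49 counts per library and was not called at any time against 0 h (adjusted p from 0.0597 to 0.987). TLR4, which binds the S100A8 and S100A9 complex, rose at 24 h from 8.15 ± 0.94 to 11.4 ± 0.41 CPM (adjusted p = 0.0035; 0.055 after length correction). BSG, a receptor of S100A9, fell at 24 h from 883 ± 42 to 715 ± 25 CPM (-0.30 ± 0.070, adjusted p = 0.0028), and by -0.12 after length correction. NPTN fell at 3 h (-0.36 ± 0.075, adjusted p = 0.0028; -0.38 after length correction). EGFR rose at 6 h from 234 ± 14 to 314 ± 28 CPM (0.43, adjusted p = 0.0012; 0.32 after length correction). CXCR2 had 0 counts.

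Of 24 partner genes, 20 were tested. At 6 h 5 rose and 3 fell (16.9% and 13.2% of all genes), and at 24 h 5 rose and 4 fell (18% and 17.1%), with medians of -0.05 and 0.06. ANXA2, which binds S100A10, had 2672, 2564 and 2576 CPM at 0 h and 2558, 2182 and 2208 CPM at 24 h. It fell slightly (-0.17 ± 0.064, adjusted p = 0.045), which did not hold after length correction (-0.09, adjusted p = 0.064), and its replicate 1 at 24 h was close to the 0 h libraries. ANXA1, a partner of S100A11, fell at 24 h (-0.25 ± 0.060, adjusted p = 0.0035; -0.28 after length correction). MYH9, the myosin heavy chain bound by S100A4, rose at 6 h from 1453 ± 121 to 2002 ± 150 CPM (0.46 ± 0.076, adjusted p = 0.00023; 0.39 after length correction), while S100A4 fell. MYH10 rose at 24 h (0.40 ± 0.090, adjusted p = 0.0024; 0.18 after length correction, adjusted p = 0.02). AHNAK, a large partner of the S100A10 and annexin A2 complex, rose at 24 h from 855 ± 82 to 1304 ± 185 CPM (0.61 ± 0.12, adjusted p = 0.001). Its transcript length is uncertain (1024 bases by the median used here), so no corrected value is given. The part of the length trend in this rise was not tested. PLAU, the urokinase that makes plasmin, rose at 3 h from 414 ± 13 to 686 ± 22 CPM (0.73 ± 0.052, adjusted p = 7.6e-09; 0.73 after length correction). NFKB2, which the title of the series names, rose at 3 h from 80.3 ± 2.2 to 162 ± 15 CPM (1.01 ± 0.067, adjusted p = 2.7e-09) and at 6 h to 159 ± 5.0 CPM (0.99 ± 0.067), and by 1.03 and 1.01 after length correction.

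Of 13 genes from the same stretch of chromosome 1 that belong to the epidermal complex or lie beside it, 6 were tested. At 6 h 2 rose and 2 fell (16.9% and 13.2% of all genes), and the median was 0.01. FLG, which encodes filaggrin and has a transcript of 12747 bases, rose at 6 h from 19.1 ± 2.7 to 32.4 ± 4.1 CPM (0.76 ± 0.13, adjusted p = 0.00048; 0.58 after length correction). ILF2 also rose at 6 h (0.16 ± 0.060, adjusted p = 0.047; 0.22 after length correction). SNAPIN fell at 6 h (-0.26 ± 0.095, adjusted p = 0.045), a call lost after length correction (-0.10). THEM4 fell at 24 h from 17.8 ± 1.6 to 13.65 ± 0.58 CPM (-0.39 ± 0.088, adjusted p = 0.0026; -0.30 after length correction). LOR, IVL and TCHHL1 had 0 counts. The counts of ANXA2, PLAU and FLG had fractions in each of the 17 libraries. The difference between these neighbours and the 8 S100A genes was not tested.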

How the data were processed

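The deposited table holds expected counts, estimated by the authors per gene with RSEM, per the file headers and name, not scaled to depth or length. The submitters' processing notes name cutadapt 1.18, STAR 2.7.0f and hg38. The annotation and the strand setting are not given in the sources used here. Of the values, 10.8% are not whole, and they were rounded. edgeR 4.0.16 (R 4.3.3; filterByExpr, TMM, robust quasi-likelihood, 1 mean per time, 17 libraries) tested 15365 genes, with Benjamini-Hochberg adjustment over all of them and a threshold of 0.05. CPM uses TMM-scaled totals. TPM uses the median GENCODE 29 transcript length of a gene, which can misstate genes with many short models such as AHNAK. The length-corrected fit adds per-library offsets from spline trends in length and GC. Members and lists were chosen with earlier results of these data known. Named list genes were those called against 0 h whose libraries did not overlap and whose average log2 CPM reached 2, at most 4 per list, plus S100A9, ANXA2, AGER and NFKB2. ANXA1, S100P and S100A1 and the marker genes were added after their values were seen. The script was tested on simulated data.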

Additional observations from a re-analysis of the deposited data

How the results depend on the processing

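Of 2160 refits of single-gene differences, 2038 kept the side of the threshold, 67 lost the call and 47 gained one. The remaining 8 changed sign where the main fit or the refit passed the test. Sign changes with no call in either fit are counted among the 2038. The 8 came from the length and GC offsets without and with a replicate block: S100A2 at 24 h against 0 h (0.2214 and 0.2216), S100A13 at 24 h (0.0036 and 0.0049), and from 3 to 6 h S100A13 (0.071 and 0.070) and S100A16 (0.1591 and 0.1593). Counts of members called moved as follows. With these offsets 3 were lower at 3 h (0 from counts), 5 lower at 6 h (8), 2 higher at 24 h (0), 1 lower from 1 to 3 h (0, or 2 with the block), 1 higher from 3 to 6 h (0), 5 higher from 6 to 12 h (3) and 2 higher from 12 to 24 h (0). From 1 to 3 h the offsets without the block called 12.2% of all genes. Replicate 1 alone at 6 and 24 h, an alternative chosen after seeing the data, gave 1 lower at 6 h, 0 lower at 24 h (4), 2 lower from 3 to 6 h (6), 0 higher from 6 to 12 h and 0 lower from 12 to 24 h (2). Replicates 2 and 3 averaged at these times gave 5 lower at 6 h, 1 higher from 6 to 12 h and 0 lower from 12 to 24 h. Library size alone gave 2 lower at 3 h and 5 higher from 6 to 12 h. No filter gave 3 higher and 1 lower at 3 h and 5 higher from 6 to 12 h. Fits of only the 2 groups gave 3 higher at 3 h. The cause of the last 3 was not tested. Shares of all genes called are not given here for these 3, for replicate 1 alone or for the averaged replicates. A general change in the number of calls therefore cannot be told apart from one in the members. Leaving out 1 library gave 0 to 2 higher and 0 to 1 lower at 3 h, 4 to 8 lower at 6 h, 0 to 1 lower at 12 h, 3 to 6 lower at 24 h, 6 to 7 lower from 3 to 6 h, 1 to 5 higher from 6 to 12 h, 1 to 2 lower from 12 to 24 h and 7 to 8 differing over all times. RLE scaling, DESeq2 1.42.0, limma-voom 3.58.1, a mean count of at least 10 and unrounded counts moved no count of members by more than 1.5 times. Each library's deviations from the mean of its time were correlated between times. The correlations ran from -0.199 to 0.211 over 40 pairs with the same replicate number. They ran from -0.163 to 0.199 over 80 pairs with different numbers. The means rest on 2 or 3 libraries, so this does not settle whether replicate numbers pair the libraries. The replicate block alone changed 1 single-gene call, S100A10 from 6 to 12 h, and the call of S100A16 over all times (adjusted p = 0.057). Depth does not allow S100A8 and S100A14 to be compared between times.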
